A study of Mus musculus with 6 samples.

Results

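The genes described are 10 that encode proteins of the Z-disc of heart muscle: Tcap, Ldb3, Actn2, Csrp3, Nexn, Myoz2, Mypn, Nebl, Myot and Synpo2l. They were taken by symbol from a table of 44792 genes, and all 10 passed the filter on low counts, which kept 14370 genes. RNA was sequenced from whole hearts of 6 untreated C57BL/6 mice at 3 months of age, 1 library per heart. In 3 of them the thin filament protein cTnI, cardiac troponin I, carried the R193H substitution, and the other 3 were wild type. How the substitution was introduced is not given in the sources used here, and the series asks which genes differ between the genotypes.

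The Z-disc is the boundary of the sarcomere, where actin filaments of neighbouring sarcomeres are cross-linked by alpha-actinin and where titin is anchored. It also holds signalling proteins, among them the phosphatase calcineurin, and its proteins are linked to the sensing of stretch. Mutations in several of these genes are known causes of cardiomyopathy in humans.

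The libraries held 19582600 to 21852210 counts in R193H hearts and 14736067 to 20652534 counts in wild type hearts, and every pair of hearts of a group differed by more than sampling noise. Tnni3, the gene of cTnI, was expressed in every heart (3641 to 3900.2 CPM in R193H and 3202 to 3466 CPM in wild type hearts, where CPM, the unit used throughout, is read counts scaled to the TMM-adjusted library total), and gene counts do not show the substitution. Cardiomyocyte markers were high throughout, and the 12 of them summed to 62549 to 67400 CPM in R193H hearts and 69812 to 72395 CPM in wild type hearts. Over library totals, without the TMM factors, these sums overlapped between the groups, so their order rests on the scaling. R193H replicate 2 stood apart from the other hearts, with 30.9% of its counts from mitochondrially encoded genes, against 35.2% to 35.4% in the other R193H hearts and 36.7% to 36.8% in wild type hearts. Its 7 fibroblast markers summed to 2102 CPM, against 1338 and 1405 CPM in the other R193H hearts and 1258 to 1495 CPM in wild type hearts. In whole tissue, fewer cells of a type and less RNA per cell cannot be told apart.

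No Z-disc gene passed the threshold between R193H and wild type hearts (0 of 10 in edgeR's quasi-likelihood test, adjusted p from 0.85 to 0.994), where 0.00696% of all genes tested passed. At an unadjusted p under 0.05, 1 of the 10 stood higher, Tcap, and none stood lower; over all genes tested these shares were 3.22% and 2.51%. DESeq2, which called 0.292% of genes, and limma-voom also called none of the 10. Tcap, the titin cap protein telethonin, had the greatest mean difference of the 10, at 1.38-fold (95% interval 1.02 to 1.87) the wild type level, and it was carried by 2 of the 3 R193H hearts. Of the other 9 genes, 7 had a lower mean in R193H hearts, by at most 0.24 on the log2 scale. Over all genes tested 50.1% had a lower mean, and among the 1161 genes with a mean of at least 100 CPM in a group 69.7% did, so 7 of 10 is near the share of abundant genes. The median log2 fold change was -0.096 over the 10 genes, -0.00036 over all genes tested and -0.062 over the abundant genes.

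Promoter sequences are shown for 3 members because they stand for the patterns below: Actn2, the only member whose genotypes did not overlap in TMM-scaled CPM, Ldb3, a member of little spread, and Myoz2, one of the members lowest in R193H replicate 2. The windows run from 250 bases before to 50 bases after a transcription start and come from RefSeq on GRCm38.p6, where 7 of the 10 members matched (Ldb3, Actn2, Csrp3, Myoz2, Mypn, Nebl and Synpo2l, with 13 windows in all). Capitals mark matches to 5 motifs of muscle and heart regulators searched on both strands: the E-box CANNTG, the MEF2 core CTANNNNTAG, the MCAT element CATTCC, the GATA element AGATAA and the CArG box of serum response factor.
Actn2 (chr13:12340683-12340982, minus strand): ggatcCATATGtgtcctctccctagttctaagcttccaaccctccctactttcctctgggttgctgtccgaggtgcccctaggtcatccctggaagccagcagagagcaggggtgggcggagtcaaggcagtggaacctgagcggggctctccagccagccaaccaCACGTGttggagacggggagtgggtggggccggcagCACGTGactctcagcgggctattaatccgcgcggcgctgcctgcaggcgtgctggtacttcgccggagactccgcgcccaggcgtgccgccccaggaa
Ldb3 (chr14:34588632-34588931, minus strand): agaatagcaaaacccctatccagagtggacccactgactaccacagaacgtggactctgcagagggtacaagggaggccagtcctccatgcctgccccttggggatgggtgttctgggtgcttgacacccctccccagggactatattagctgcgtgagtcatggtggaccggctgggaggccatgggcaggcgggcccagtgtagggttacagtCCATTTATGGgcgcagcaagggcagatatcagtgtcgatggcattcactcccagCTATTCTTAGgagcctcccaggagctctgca
Myoz2 (chr3:123034938-123035237, minus strand): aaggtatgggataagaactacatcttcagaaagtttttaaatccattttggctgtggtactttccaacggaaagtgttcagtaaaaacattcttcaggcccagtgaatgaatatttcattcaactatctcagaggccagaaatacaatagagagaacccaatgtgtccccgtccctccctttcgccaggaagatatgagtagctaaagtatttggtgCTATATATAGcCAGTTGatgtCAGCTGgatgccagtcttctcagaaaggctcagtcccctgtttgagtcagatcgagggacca
The Actn2 window held 3 E-boxes and no other of the motifs. In Ldb3 a CArG box lay 35 to 26 bases before the start and a MEF2 core 20 to 29 bases after it. The Myoz2 window had a MEF2 core 33 to 24 bases before the start and 2 E-boxes between that and the start, none of which overlap. An E-box occurred in 10 of the 13 member windows, and in 72.3% of all 32851 windows of this length. The MEF2 core was in 4 of the 13, which belong to Ldb3, Myoz2 and Synpo2l, and in 3.69% of all windows. A CArG box was in 3 of the 13, which belong to Ldb3 and Nebl (1.63% of all windows). The 2 Ldb3 windows overlap, and both hold the same MEF2 core and the same CArG box. The MCAT element was in 2 (14.7%) and the GATA element in 2 (11.2%). These matches describe letters and are no measure of binding.

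Tcap and Csrp3 belong together as partners at the end of titin: telethonin joins the ends of a pair of titin molecules, and the muscle LIM protein encoded by Csrp3 binds telethonin and alpha-actinin. Tcap (GRCm38 chromosome 11, 98383811 to 98384953) measured 1635, 1574 and 999 CPM in R193H replicates 1, 2 and 3, against 1013, 1138 and 905 CPM in wild type replicates 1, 2 and 3. R193H replicates 1 and 2 lay above every wild type heart, and R193H replicate 3 fell between the wild type values, so the groups overlapped. Its mean was 1403 ± 351 CPM in R193H and 1019 ± 117 CPM in wild type hearts (SD, n = 3 each), and its log2 fold change was 0.46 (SE 0.19, edgeR adjusted p = 0.85, unadjusted p = 0.0415). Without R193H replicate 3 the log2 fold change was 0.66 and edgeR's adjusted p was 0.0581, and without R193H replicate 1 it was 0.34. Over all the alternatives, adjusted p ranged from 0.0581 to 0.998.

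Other measures were set beside Tcap heart by heart. The 7 macrophage markers summed to 270.1, 265 and 196 CPM in R193H replicates 1, 2 and 3, against 155, 164 and 185 CPM in wild type replicates 1, 2 and 3. All 7 had a higher mean in R193H hearts, their median log2 fold change was 0.53, and none was at 0; their part in the Tcap result was not tested. Tcap is also expressed in skeletal muscle. The 11 skeletal muscle markers summed to 3.42 to 4.16 CPM in R193H hearts and 2.98 to 4.30 CPM in wild type hearts, with Myh4, a fast skeletal myosin, listed at 0 in every heart, and their part in the Tcap result was not tested. Its transcript is short, with 948 bases of merged exons. The median over genes tested with under 1 kb of exons was 0.037 on the log2 scale and over those beyond 8 kb -0.049, and correcting each heart for length left Tcap at 0.41.

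Csrp3 (chromosome 7, 48830398 to 48848033) measured 699, 594 and 732 CPM in R193H replicates 1, 2 and 3, against 616, 678 and 717 CPM in wild type replicates 1, 2 and 3. The highest and the lowest of the 6 values both came from R193H hearts. Its log2 fold change was 0.011 with a 95% interval from -0.22 to 0.24, or 0.86 to 1.18 times the wild type level. It turned below 0 when R193H replicate 1 (-0.016), R193H replicate 3 (-0.044) or wild type replicate 1 (-0.048) was left out.

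**Figure D1:**
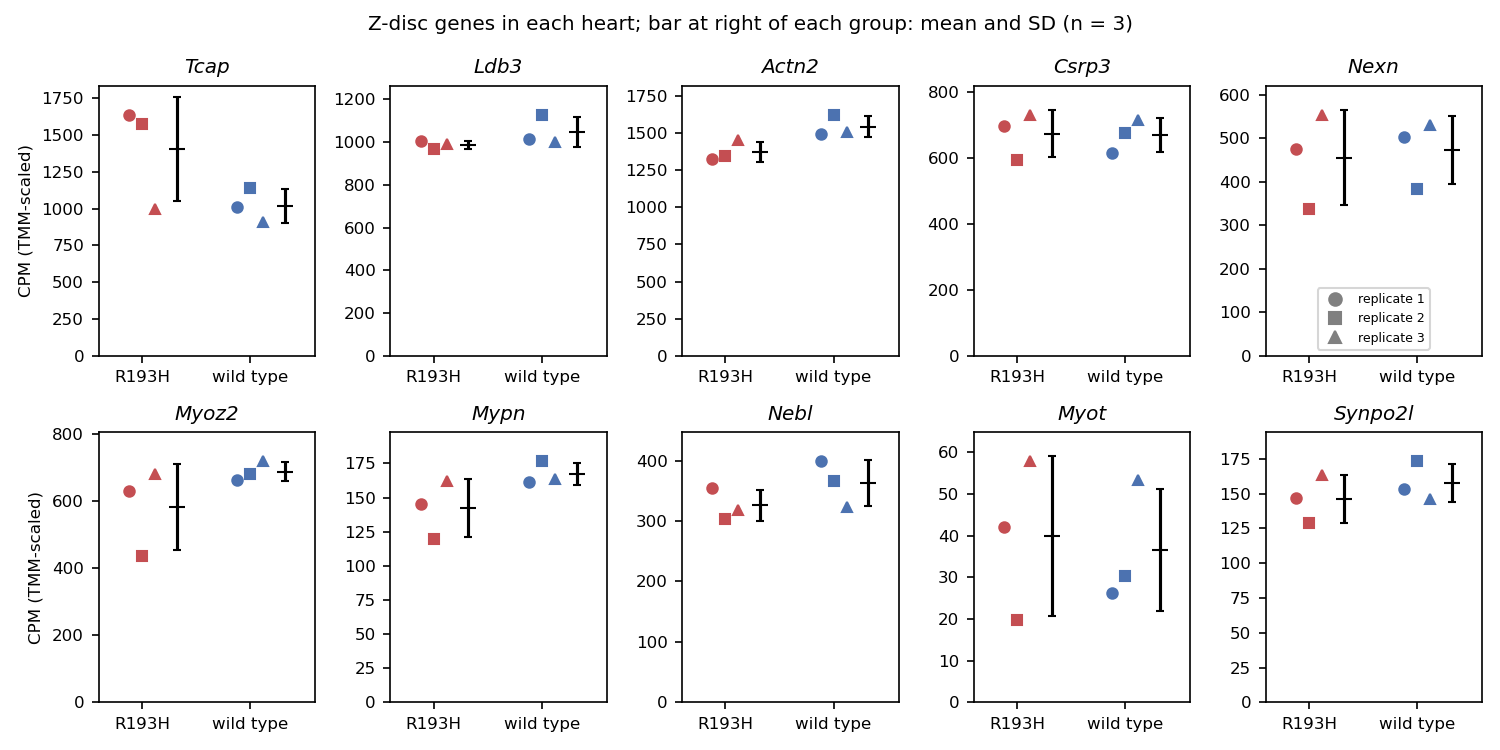
Level of each of the 10 Z-disc genes in CPM (vertical axis, TMM-scaled) in each heart of the R193H group (red) and the wild type group (blue), with the mean and SD (n = 3) at the right of each group. Tcap reaches 1635 and 1574 CPM in R193H replicates 1 and 2, above every wild type heart, while the other genes overlap between groups except Actn2.

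Actn2 and Ldb3 encode the actin cross-linker alpha-actinin 2 and the PDZ and LIM domain protein known as Cypher or ZASP, which binds it. Actn2 (chromosome 13, 12269426 to 12340760) measured 1328, 1344 and 1451 CPM in R193H replicates 1, 2 and 3, against 1491, 1622 and 1510.3 CPM in wild type replicates 1, 2 and 3. In TMM-scaled CPM all 3 R193H hearts lay below all 3 wild type hearts, the only member for which the groups did not overlap. Over library totals the Actn2 groups overlapped. There R193H replicate 2, with 29373 of 19582600 counts, lay above wild type replicate 1, with 21015 of 14736067. In TMM-scaled CPM, 5.8% of all genes tested did not overlap in that direction. With R193H hearts above, 6.02% of all genes and none of the 10 members did not overlap. The Actn2 means were 1374 ± 67.0 CPM in R193H and 1541 ± 70.8 CPM in wild type hearts (SD, n = 3 each), and the log2 fold change was -0.17 (SE 0.082, edgeR adjusted p = 0.867). Scaling by library totals, which put the median of all genes tested at 0.13, left Actn2 at -0.039, and scaling by the 12 cardiomyocyte markers left it at -0.050.

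In TMM-scaled CPM, cardiomyocyte markers stood low beside Actn2 in the same hearts. There 11 of 12 means were lower in R193H hearts, with a median of -0.11 on the log2 scale, and 5 of 12 had groups that did not overlap. Over library totals Ckm, among those 5, overlapped: R193H replicate 2, with 37494 of 19582600 counts, lay above wild type replicate 1, with 27149 of 14736067. The summed markers overlapped there as well, so their low standing rests on the scaling. Other lists stood the other way in TMM-scaled CPM: 7 of 7 fibroblast, 6 of 6 endothelial and 5 of 6 smooth muscle and pericyte markers had a higher mean in R193H hearts, with medians of 0.22, 0.11 and 0.13. All 5 erythroid markers had a lower mean (median -1.95), and they summed to 476, 630 and 566 CPM in R193H replicates 1, 2 and 3, against 3094, 257 and 2973 CPM in wild type replicates 1, 2 and 3, where wild type replicate 2 lay below every other heart. The 6 atrial markers also differed between hearts of a group. They summed to 148, 307 and 192 CPM in R193H replicates 1, 2 and 3. The sums were 730, 344 and 87.1 CPM in wild type replicates 1, 2 and 3. Among them Myl7 ran from 2.89 to 62.1 CPM in R193H and from 0.401 to 74.1 CPM in wild type hearts. Each of the 5 tested averaged lower with R193H, with a median of -0.80 on the log2 scale. The part of these cell types and of atrial tissue in the Z-disc values was not tested.

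Ldb3 (chromosome 14, 34526603 to 34588682) measured 1003, 965 and 993 CPM in R193H replicates 1, 2 and 3, against 1015, 1127 and 999.8 CPM in wild type replicates 1, 2 and 3. Its R193H hearts were close together, with a coefficient of variation of 1.97%, against 6.62% in wild type hearts, and only R193H replicate 1 reached the wild type range. The log2 fold change of Ldb3 was -0.085 (SE 0.083, 95% interval -0.27 to 0.099), and without wild type replicate 2 it was -0.030. Its gene has 8 annotated transcripts, and the heart and skeletal muscle forms cannot be told apart in counts per gene.

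Nexn, Mypn, Nebl, Myot and Synpo2l encode proteins that bind actin filaments or alpha-actinin at the Z-disc. Mypn, for myopalladin, a link between alpha-actinin and nebulin-family proteins (chromosome 10, 63115795 to 63203952), measured 145, 119.8 and 162.0 CPM in R193H replicates 1, 2 and 3, against 161.6, 176.5 and 164 CPM in wild type replicates 1, 2 and 3. R193H replicate 3 and wild type replicate 1 were nearly level, and the other R193H hearts lay below every wild type heart. Its log2 fold change of -0.23 (SE 0.11, 95% interval -0.48 to 0.013) was -0.12 without R193H replicate 2 and -0.11 under library totals.

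Nebl, for nebulette, the nebulin relative of heart muscle (chromosome 2, 17343909 to 17731464), measured 355, 304 and 318 CPM in R193H replicates 1, 2 and 3, against 399, 367 and 323 CPM in wild type replicates 1, 2 and 3. The groups overlapped only through R193H replicate 1, and the log2 fold change was -0.15 (SE 0.10). It was -0.084 without wild type replicate 1, -0.23 without wild type replicate 3, -0.093 with the correction for length, -0.030 under library totals and -0.042 under cardiomyocyte marker scaling. Antisense genes Gm13324 and Mir6419 lie inside Nebl, and without a stated use of strand reads of Gm13324 cannot be told from those of Nebl. Nebl also had 4 windows at separate starts in the promoter table, and counts per gene do not separate the transcripts.

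Synpo2l, a synaptopodin relative at the Z-disc (chromosome 14, 20658946 to 20668354), measured 147, 129 and 164 CPM in R193H replicates 1, 2 and 3, against 153, 173 and 146 CPM in wild type replicates 1, 2 and 3. Its log2 fold change was -0.11 (SE 0.11), and it was -0.19 without R193H replicate 3, -0.021 when R193H replicate 2 was left out and -0.034 when wild type replicate 2 was. Nexn, for the actin-binding protein nexilin (chromosome 3, 152236982 to 152266350), measured 474, 338 and 554 CPM in R193H replicates 1, 2 and 3, against 503, 384 and 532 CPM in wild type replicates 1, 2 and 3. Both groups had 1 low heart, replicate 2 of each, and the log2 fold change of -0.055 had a 95% interval from -0.52 to 0.41. It turned to 0.12 when R193H replicate 2 was left out and to 0.037 when wild type replicate 3 was.

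Myot, for myotilin, which binds alpha-actinin and filamin (chromosome 18, 44334074 to 44355724), varied most between hearts of a group. It measured 42.0, 19.7 and 57.8 CPM in R193H replicates 1, 2 and 3, against 26.2, 30.2 and 53.4 CPM in wild type replicates 1, 2 and 3. The R193H range held all 3 wild type values. The within-group SD was 0.68 on the log2 scale, at the 95.3 percentile of all genes tested, where the median gene had 0.17. Its log2 fold change of 0.11 had a 95% interval from -1.25 to 1.48, or 0.42 to 2.79 times the wild type level. Changes in either direction within these bounds were thus compatible with the values. It turned below 0 when R193H replicate 3 (-0.25), wild type replicate 1 (-0.075) or wild type replicate 2 (-0.0077) was left out.

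Myoz2 encodes calsarcin-1, which ties calcineurin to alpha-actinin and is known from mice to restrain calcineurin signalling. It (chromosome 3, 123006206 to 123035015) measured 628, 437 and 681 CPM in R193H replicates 1, 2 and 3, against 661, 681 and 717 CPM in wild type replicates 1, 2 and 3. R193H replicate 2 was far below the rest, and R193H replicate 3 was level with wild type replicate 2. The means were 582 ± 129 CPM in R193H and 687 ± 28.5 CPM in wild type hearts (SD, n = 3 each), with a log2 fold change of -0.24 (SE 0.15) that was -0.067 without R193H replicate 2, -0.36 without R193H replicate 3 and -0.12 under library totals.

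**Figure D2:**
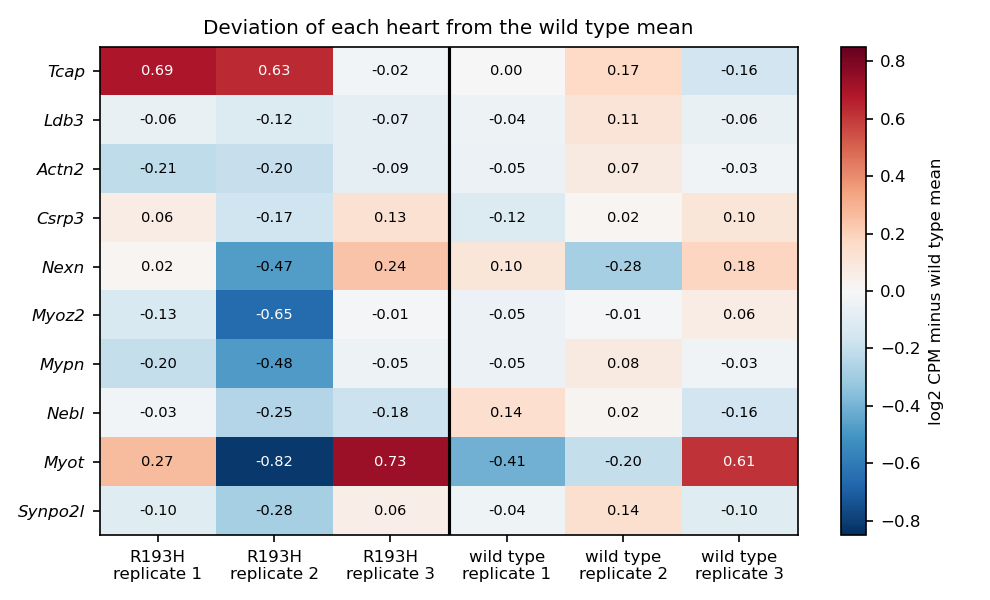
Deviation of each heart (columns, R193H at the left) from the wild type mean of each gene (rows) in log2 CPM; red is above and blue below that mean. The R193H replicate 2 column is blue for 9 of the 10 genes, from -0.12 for Ldb3 to -0.82 for Myot, while Tcap is at 0.63 in the same heart.

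In TMM-scaled CPM a single heart held most of the low values. R193H replicate 2 was lowest of all 6 hearts for 8 of the 10 genes (Ldb3, Csrp3, Nexn, Myoz2, Mypn, Nebl, Myot and Synpo2l). It was also lowest for 7 of the 12 cardiomyocyte markers and for 23.9% of all genes tested, and highest for 23.2%. The ranking of the members rests on the scaling. Over library totals this heart stayed lowest for Myoz2, Mypn and Myot, but not for the others. Its Ldb3 counts were 21103 of 19582600, a larger share than the 19960 of 20652534 in wild type replicate 3. In TMM-scaled log2 CPM, the median deviation of R193H replicate 2 from the wild type mean over the 10 genes was -0.27. It was -0.043 and -0.016 in R193H replicates 1 and 3, and the wild type hearts ranged from -0.045 to 0.048. The same heart had the highest summed fibroblast markers and the lowest mitochondrial share, given above, and the part of these in its Z-disc values was not tested. The members differed in how far they varied within groups. Actn2 and Ldb3 had within-group SDs of 0.067 and 0.069 on the log2 scale, below the median of 0.11 among abundant genes. Tcap, Nexn and Myoz2 had 0.30, 0.31 and 0.25, at or above the 90.2 percentile of the abundant genes.

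The summed level of the 10 genes overlapped between the genotypes in CPM and as a share of nuclear counts, but not as a share of all counts. It was 6456, 5824 and 6112 CPM in R193H replicates 1, 2 and 3, against 6039, 6376 and 6068 CPM in wild type replicates 1, 2 and 3. As a share of counts from nuclear genes, the 10 took 1.01%, 0.941% and 0.946% in R193H replicates 1, 2 and 3, against 0.913%, 0.955% and 0.929% in wild type replicates 1, 2 and 3. Of all counts, mitochondrial ones included, they took 0.657%, 0.650% and 0.611% in R193H replicates 1, 2 and 3. In wild type replicates 1, 2 and 3 that share was 0.578%, 0.603% and 0.587%, below every R193H heart. The direction of the summed level thus rests on the scaling. Shares within the sum do not depend on library scaling. Tcap took 25.3%, 27.0% and 16.3% of the sum in R193H replicates 1, 2 and 3, against 16.8%, 17.8% and 14.9% in wild type replicates 1, 2 and 3. In R193H replicates 1 and 2 it was the largest of the 10 by counts, and in the other 4 hearts Actn2 was. Actn2 took 20.6%, 23.1% and 23.7% in R193H hearts, against 24.7%, 25.4% and 24.9% in wild type hearts, without overlap. The share of Mypn also did not overlap (2.25%, 2.06% and 2.65% in R193H hearts, against 2.68%, 2.77% and 2.70% in wild type hearts). A share falls when another rises, so these are not independent of the Tcap share.

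Set against Actn2 alone, Tcap had 123, 117 and 68.8 counts per 100 Actn2 counts in R193H hearts, against 67.9, 70.2 and 59.9 in wild type hearts. Mypn had 10.9, 8.92 and 11.2 per 100 in R193H hearts, against 10.8, 10.9 and 10.9 in wild type hearts, so its low level in R193H replicate 2 went beyond that of Actn2, while R193H replicates 1 and 3 were close to the wild type ratio. For Csrp3 the ratio was 52.6, 44.2 and 50.4 in R193H hearts, against 41.3, 41.8 and 47.5 in wild type hearts.

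**Figure D3:**
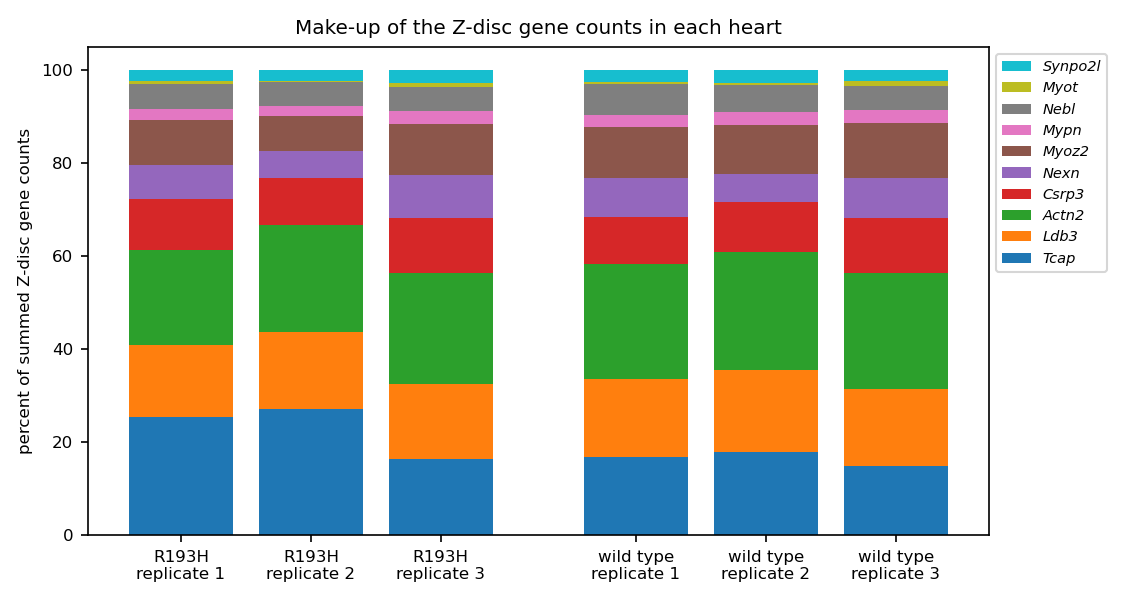
Make-up of the summed counts of the 10 Z-disc genes in each heart (bars, R193H at the left), in percent of the sum. The Tcap segment is 25.3% and 27.0% in R193H replicates 1 and 2 and between 14.9% and 17.8% in the other 4 hearts.

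Levels between genes were ordered per kilobase of coding length. Tcap was first, at 2799.8 ± 700.3 CPM per kb in R193H and 2033 ± 233 CPM per kb in wild type hearts (SD, n = 3 each). Csrp3 followed at 1160 ± 123 CPM per kb in R193H and 1151 ± 87.8 CPM per kb in wild type hearts. Next came Myoz2, Actn2, Ldb3, Nexn, Nebl, Synpo2l, Mypn and Myot, the last at 26.8 ± 12.9 CPM per kb in R193H and 24.6 ± 9.86 CPM per kb in wild type hearts. The order of means was the same in both genotypes. Among R193H hearts, Myoz2 overlapped its neighbour Actn2 and Mypn overlapped Myot, while no neighbours overlapped among wild type hearts. Per kilobase of merged exons, untranslated parts included, Tcap stayed first and Myot last, while Actn2 moved to the second place.

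**Figure D4:**
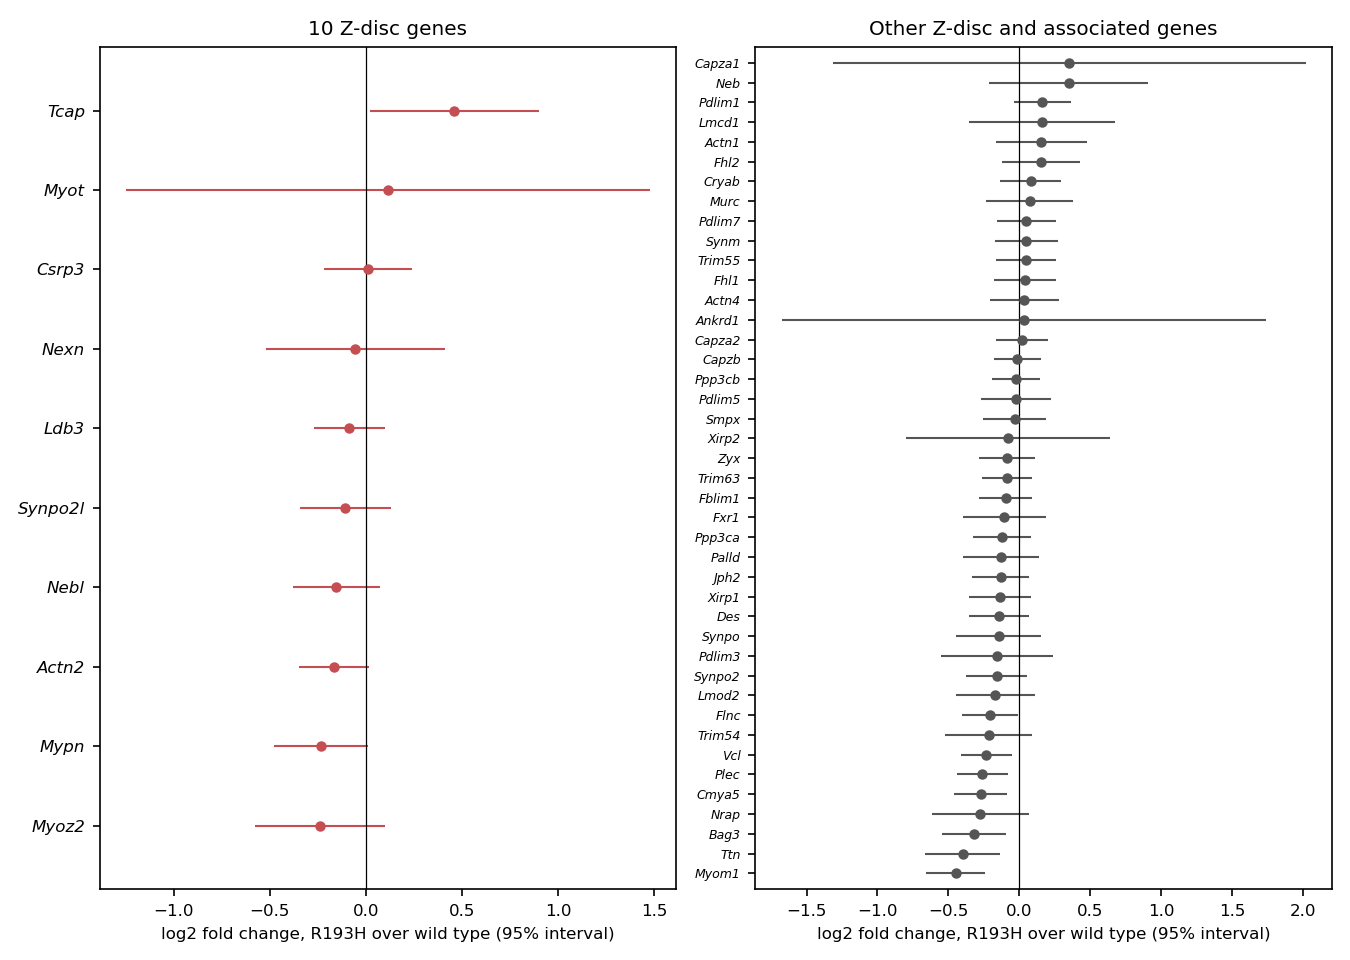
Log2 fold change of R193H over wild type with its 95% interval (horizontal axis) for the 10 Z-disc genes (left) and other Z-disc and associated genes (right), each on its own axis. The Tcap interval runs from 0.023 to 0.90 and the other 9 at the left include 0, while at the right the whole intervals of Myom1, Ttn, Bag3, Cmya5, Plec, Vcl and Flnc lie below 0.

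The rest of the structure was read from 48 genes of other Z-disc, neighbouring sarcomere, costamere and associated proteins. Among them are the calcineurin subunit genes Ppp3ca and Ppp3cb, which also count among the signalling partners below. Of the 48, 43 were tested, 28 had a lower and 15 a higher mean in R193H hearts, and none passed the threshold (lowest edgeR adjusted p = 0.526, for Myom1). At an unadjusted p under 0.05, 8 stood lower and none higher. In TMM-scaled CPM, the R193H hearts all lay below the wild type hearts in 8 of 43, and in none above. That is 18.6%, against 5.8% of all genes tested and 41.7% of the cardiomyocyte markers. A lower mean was found in 65.1% of the 43, against 69.7% of the abundant genes. The list median was -0.086 on the log2 scale.

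The 8 genes of smallest p were the same 8 whose groups did not overlap in TMM-scaled CPM, and they include genes of very large proteins. Ttn, titin, which spans from the Z-disc to the M-band and is capped by telethonin, measured 3522, 2687 and 3669.8 CPM in R193H replicates 1, 2 and 3, against 4476, 4452 and 4094 CPM in wild type replicates 1, 2 and 3. Every R193H heart was below every wild type heart, with a log2 fold change of -0.40 (SE 0.12) that was -0.20 with the correction for length. Myom1, whose product myomesin cross-links the M-band rather than the Z-disc, measured 917, 909.8 and 877 CPM in R193H hearts, against 1349.7, 1236 and 1105 CPM in wild type hearts. Its difference of -0.45 on the log2 scale (SE 0.092) passed in DESeq2 (adjusted p = 0.00343) and in edgeR without a filter on low counts (adjusted p = 0.0368). The desmin-associated Cmya5 (-0.27, SE 0.084) and the cytoskeletal linkers Plec (-0.26, SE 0.080), Vcl (-0.23, SE 0.081) and Flnc (-0.20, SE 0.089) had lower means as well. Bag3, a co-chaperone of filamin turnover at the Z-disc, stood at -0.32 (SE 0.10). None of the 8 changed sign under any alternative, but under library totals Bag3 was at -0.20, Cmya5 at -0.15, Plec at -0.13, Vcl at -0.10 and Flnc at -0.079. Over library totals the groups overlapped for Bag3, Plec, Vcl and Flnc, and did not for Myom1, Ttn and Cmya5. For Plec, R193H replicate 2, with 5981 of 19582600 counts, lay above wild type replicate 1, with 4377 of 14736067.

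Signalling partners of the Z-disc were calcineurin subunits, NFAT factors, kinases and the MEF2 and SRF factors. Mrtfa was not analysed here. Of the 19 others, all tested, 17 had a lower and 2 a higher mean in R193H hearts, none passed (lowest edgeR adjusted p = 0.816, and 1 stood lower at an unadjusted p under 0.05; DESeq2 called none either), and the list median was -0.12. Prkce, the kinase PKC epsilon, measured 4.55 ± 0.776 CPM in R193H and 6.30 ± 1.06 CPM in wild type hearts (SD, n = 3 each; log2 fold change -0.46, SE 0.19). Nfatc3 and Nfatc1, targets of calcineurin, both stood at -0.14 (SE 0.082 and 0.088), and the kinase gene Gsk3b at -0.13 (SE 0.093); under library totals these 3 were at -0.014, -0.013 and -0.0030. With scaling by library totals the list median was 0.0049, so its sign rests on the scaling.

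None of 9 genes tested as relatives of the members passed the threshold in edgeR, and none had an unadjusted p under 0.05. The skeletal alpha-actinin Actn3 and the calsarcins Myoz1 and Myoz3 did not pass the filter on low counts: Actn3 had 5, 14 and 11 counts in R193H hearts, against 2, 6 and 4 counts in wild type hearts, Myoz1 had 2 to 5 counts in every heart, and Myoz3 was listed at 0. The non-muscle alpha-actinins Actn1 and Actn4 measured 35.4 ± 7.60 and 166 ± 20.04 CPM in R193H hearts, against 31.8 ± 0.923 and 162 ± 15.9 CPM in wild type hearts. Csrp1, the smooth muscle relative of Csrp3, was at 68.0 ± 14.1 CPM in R193H and 61.8 ± 2.77 CPM in wild type hearts. Csrp2 was at 12.8 ± 5.43 CPM in R193H and 13.2 ± 2.05 CPM in wild type hearts. Neb, for nebulin, the skeletal relative of Nebl, was at 6.26 ± 0.822 CPM in R193H and 4.87 ± 1.86 CPM in wild type hearts. The relatives of Mypn and Synpo2l, Palld and Synpo2, were at 165 ± 13.2 and 141 ± 14.1 CPM in R193H hearts, against 181 ± 29.2 and 158 ± 10.5 CPM in wild type hearts. Synpo was at 97.4 ± 7.79 CPM in R193H and 107.7 ± 19.9 CPM in wild type hearts, and Ldb1, a LIM-binding protein of the nucleus that shares a symbol stem with Ldb3 and is no paralog of it, at 53.6 ± 4.54 CPM in R193H and 51.2 ± 3.33 CPM in wild type hearts. SDs are over n = 3 hearts, and the adjusted p of these 9 genes ranged from 0.897 to 0.992 in edgeR.

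**Figure D5:**
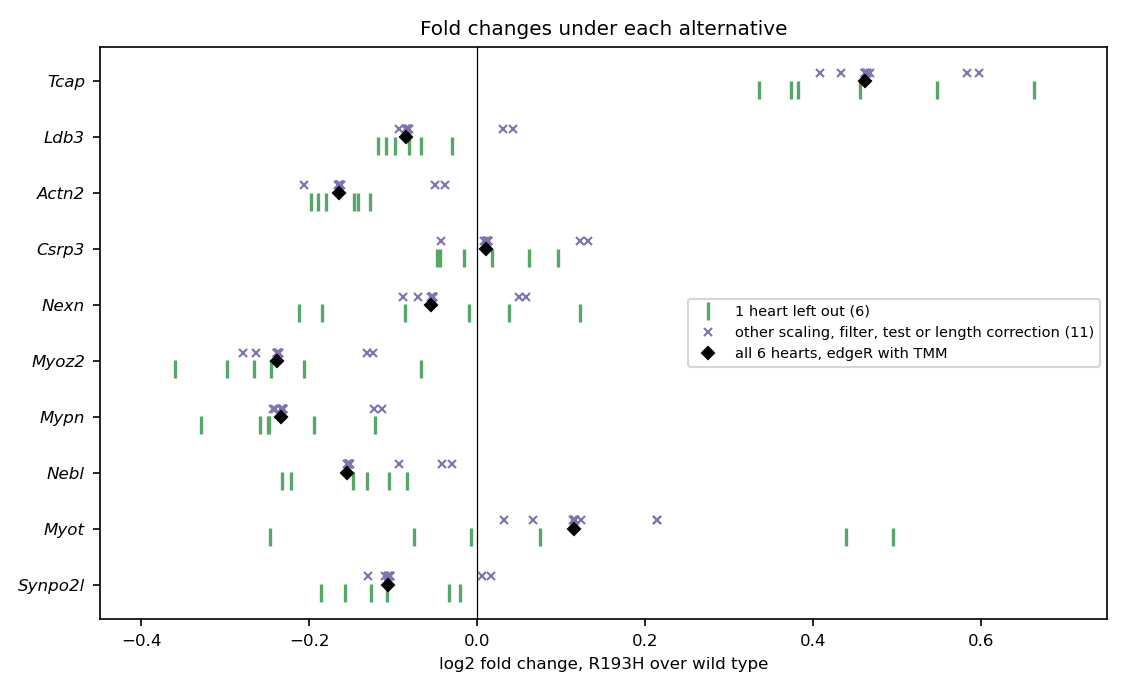
Log2 fold change of R193H over wild type (horizontal axis) for each of the 10 Z-disc genes with all 6 hearts (diamonds), with 1 heart left out (green ticks) and under 11 other settings (crosses). Tcap stays above 0 throughout, from 0.34 to 0.66, Actn2, Myoz2, Mypn and Nebl stay below 0, and the other 5 fall on both sides.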

How the data were processed

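Total RNA of 6 hearts was sequenced; extraction used Trizol, per the labels' protocols. The authors deposited raw read counts for each gene symbol, as whole numbers in 1 table. HISAT2 2.0.4 and GRCm38 are named for alignment, per the submitters' processing notes. No source used here names the program that counted reads, says how it treated reads shared between genes, or says whether strand was used. Columns were matched to hearts by sample titles and grouped by the genotype label; replicate numbers follow the listing and pair no hearts.

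The genotypes were compared with edgeR 4.0.16 in R 4.3.3. Low-count genes were dropped by filterByExpr at its default settings (14370 genes stayed, 30422 left), TMM (trimmed mean of M values) factors were applied, and glmQLFTest was run after a robust glmQLFit, with no covariate. Benjamini-Hochberg adjustment ran over the whole set of genes tested, and 0.05 was the threshold. The SE of a log2 fold change is its size divided by the square root of the F statistic, and 95% intervals use the moderated degrees of freedom. Per-heart deviations use log2 CPM with a prior count of 2. Alternatives were 4 other scalings, leaving out mitochondrial genes, 2 other filters, DESeq2 1.42.0, limma-voom (limma 3.58.1), a non-robust fit and each heart left out; a loess correction for merged exon length (span 0.5; 91.6% of genes tested had a length) was added after seeing the data. The fit was tested on simulated data. Lengths and positions come from GENCODE M21 on GRCm38. Members, lists and the naming rule were chosen with earlier results of these data known; the rule names all members, genes taken as their paralogs and the genes of smallest p in each list, 8 of the other Z-disc genes (1 of them is not reported here) and 4 of the signalling partners.

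Depth was 14736067 to 21852210 counts per heart, at which a count of 0 (3 counts as its limit) allows 0.137 to 0.204 CPM, for counting error only.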

Additional observations from a re-analysis of the deposited data

How the results depend on the processing

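None of the 10 Z-disc genes passed the threshold under any alternative run. Tcap kept its higher mean and Actn2, Myoz2, Mypn and Nebl their lower means throughout. Under library totals and under cardiomyocyte marker scaling, where the median of all genes tested was 0.13 and 0.11, Ldb3 turned to 0.042 and 0.030, Nexn to 0.058 and 0.050 and Synpo2l to 0.016 and 0.0061. Csrp3 turned to -0.043 with the length correction. With single hearts left out, the log2 fold change ranged from -0.048 to 0.096 for Csrp3, from -0.21 to 0.12 for Nexn and from -0.25 to 0.50 for Myot. The number of genes called was 1 with all hearts, 0 without mitochondrial genes, 38 without a filter on low counts, 42 in DESeq2 and 3 to 21 with single hearts left out. The median of the other Z-disc genes was 0.029 under library totals, 0.022 under cardiomyocyte marker scaling and -0.10 to -0.046 with single hearts left out. It had 1 gene called, Myom1, in DESeq2 and 1 without a filter. The median of the signalling partners was 0.0049 and -0.0053 under the same pair of scalings. The cause of these shifts was not tested. No paired analysis was possible because the labels give no number shared by hearts of both genotypes. Nothing says whether hearts came from separate litters, so p-values measure the spread between these hearts.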

Other observations

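Among the other Z-disc genes, 2 that were chosen after their values were seen, for their differences among R193H hearts, are given as values. Ankrd1, a stress-responsive protein that binds titin and myopalladin, measured 737, 336 and 1689.7 CPM in R193H replicates 1, 2 and 3, against 949, 813 and 940 CPM in wild type replicates 1, 2 and 3. Fhl2, a LIM protein that binds titin, measured 1314, 1238 and 927 CPM in R193H replicates 1, 2 and 3, against 1077, 1031 and 1020.1 CPM in wild type replicates 1, 2 and 3. Both groups overlapped for each gene, with log2 fold changes of 0.031 (SE 0.63) for Ankrd1 and 0.15 (SE 0.12) for Fhl2.

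Sorbs2, a Z-disc adaptor of heart muscle, was listed at 0 in every heart. The counting program is not named, so absent RNA cannot be told here from reads lost in annotation or counting.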
